A study of Mus musculus with 7 samples.

Results

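The genes described here are 10 transcripts known as glucocorticoid and FoxO responsive stress genes: Ddit4, Txnip, Mt1, Mt2, Fkbp5, Sgk1, Tsc22d3, Zbtb16, Per1 and Klf9. They were taken from the table by symbol, and all 10 were among its 12756 genes. The symbols were chosen by name with the log2 changes and calls of the same comparison known, Ddit4 being one of its called genes, so their values in anti-Dll4 and control IgG libraries are given as a description and support nothing by themselves. The study measured RNA pulled down with HA-tagged ribosomes from retinas of adult C57BL/6 mice of the genotype Cdh5-CreERT2 Rpl22 tm1.1Psam, in which a Cre driven by the endothelial Cdh5 promoter puts the tag on the ribosomal protein Rpl22. Retinas came from mice given an antibody against Dll4, a Notch ligand of endothelial cells (4 libraries), or a control IgG (3 libraries), and every group carried the same Cre and tagged allele. The sources used here give neither the dose nor the time after injection. They do not state that each library is a separate animal either, so some of the spread behind the p-values may be technical.

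Glucocorticoid hormones enter the cell and bind the receptor Nr3c1, which moves to the nucleus and switches on genes such as Fkbp5, Tsc22d3, Zbtb16, Per1, Klf9, Sgk1 and the metallothioneins. FoxO transcription factors are held out of the nucleus by AKT when growth factor signalling is high, and they switch on genes of growth arrest and stress resistance when it is low. Ddit4 and Txnip answer to both routes, Ddit4 also to hypoxia and Txnip also to glucose. Metallothioneins answer to zinc as well, through the metal-sensing factor Mtf1.

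The promoters of 4 members are shown because 3 of them, Ddit4, Txnip and Mt2, had levels that separated the groups, and because Mt1 is the neighbour and closest relative of Mt2. They are from RefSeq on the GRCm38.p6 build, each covering 250 bases before and 50 bases after the annotated start of transcription. Of the 10 members, 9 had a promoter in that set, 6 of them a single one. Capitals mark letters found by a search of both strands for the metal response motifs TGCACNC and TGCGCNC, the FoxO motif TGTTTAC, the core ACANNNTGT of a glucocorticoid receptor site and the E-box CACGTG.
Ddit4, chr10:59951721-59952020, minus strand: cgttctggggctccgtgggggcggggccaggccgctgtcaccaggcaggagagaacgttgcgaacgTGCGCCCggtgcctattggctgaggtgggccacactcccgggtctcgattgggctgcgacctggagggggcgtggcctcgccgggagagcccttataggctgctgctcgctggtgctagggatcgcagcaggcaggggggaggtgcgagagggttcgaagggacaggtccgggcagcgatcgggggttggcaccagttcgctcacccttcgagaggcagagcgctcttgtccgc
Txnip, chr3:96557707-96558006, plus strand: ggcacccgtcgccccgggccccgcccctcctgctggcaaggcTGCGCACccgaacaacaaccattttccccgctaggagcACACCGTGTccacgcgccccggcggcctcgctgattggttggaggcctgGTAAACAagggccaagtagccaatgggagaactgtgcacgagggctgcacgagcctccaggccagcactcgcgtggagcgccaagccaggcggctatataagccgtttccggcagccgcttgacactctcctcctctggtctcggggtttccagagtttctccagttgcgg
Mt2, chr8:94172368-94172667, plus strand: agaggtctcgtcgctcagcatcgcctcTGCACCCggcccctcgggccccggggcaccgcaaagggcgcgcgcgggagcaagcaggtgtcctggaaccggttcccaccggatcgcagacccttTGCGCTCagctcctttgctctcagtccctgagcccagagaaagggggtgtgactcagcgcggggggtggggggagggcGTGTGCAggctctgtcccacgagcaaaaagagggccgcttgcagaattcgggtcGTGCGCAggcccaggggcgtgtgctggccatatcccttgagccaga
Mt1, chr8:94178839-94179138, plus strand: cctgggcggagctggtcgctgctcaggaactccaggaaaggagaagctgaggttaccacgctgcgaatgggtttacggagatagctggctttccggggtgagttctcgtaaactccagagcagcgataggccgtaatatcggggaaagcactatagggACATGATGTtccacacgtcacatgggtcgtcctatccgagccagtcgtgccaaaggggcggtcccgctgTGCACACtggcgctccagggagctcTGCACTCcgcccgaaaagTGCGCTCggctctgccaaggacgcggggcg

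The Mt2 promoter held 4 matches to the metal response letters and the Mt1 promoter 3, whereas Ddit4 and Txnip had 1 each. These counts depend on the annotated start, since only 250 bases before and 50 bases after it were searched. At least 4 such matches occurred in 0.517% of the 32851 promoters of that length, at least 3 in 1.97% and at least 1 in 25.7%. The Txnip promoter also held a FoxO match that began at base -121, counted with the start of transcription as 0, and a glucocorticoid core match that began at -170. The FoxO letters occurred in 3.65% of all promoters and the glucocorticoid core in 6.85%. A further glucocorticoid core match lay in the Mt1 promoter at -92, and Klf9 had a FoxO match at -100. Of the promoters listed for Sgk1, 2 held a glucocorticoid core match, at -127 and -186. E-box letters, present in 7.15% of all promoters, were found in Fkbp5, in 1 of the Per1 promoters and in 1 of the Sgk1 promoters. In these windows no marked motif overlapped another. Such matches describe letters and do not show that a factor binds.

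The table gives log10(CPM + 1), where CPM is the number of reads of a gene per 1000000 reads of the listed genes, and whole reads could be computed from it. The libraries held 1356192 to 1771086 reads over the listed genes, and 3 reads corresponded to 1.69 to 2.21 CPM. The libraries were made by a kit that reads the 3′ ends of transcripts, so CPM was not divided by length and levels were not compared between genes. Of the 20 endothelial markers examined, 19 were in the table, and none of these was at 0 in all libraries. However, 4 of them were at 0 in at least 1 anti-Dll4 library and 2 in at least 1 control IgG library. Their summed level was 0.413% to 0.537% of all CPM in anti-Dll4 libraries and 0.199% to 0.290% in control IgG libraries. All 16 rod markers were present and summed to 1.27% to 2.25% in anti-Dll4 and 2.55% to 2.65% in control IgG libraries. RNA of cells other than endothelium was thus present throughout. Red blood cell markers differed widely within both groups, at 0.0661% to 3.60% in anti-Dll4 and 0.140% to 1.87% in control IgG libraries. In such pulled-down RNA fewer cells of a type, less RNA per cell and a different recovery in the pull-down cannot be told apart. One control column carries the number 1, which is in no control title, and was used as a control library without a number of its own.

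Anti-Dll4 was compared with control IgG to find transcripts whose level in the pulled-down RNA differs under Dll4 blockade. Ddit4, Txnip and Mt2 were higher in each of the 4 anti-Dll4 libraries than in each of the 3 control IgG libraries. The other 7 members, Mt1, Fkbp5, Tsc22d3, Zbtb16, Per1, Klf9 and Sgk1, had groups that overlapped. Genes were tested in limma on log2(CPM + 1) with Benjamini-Hochberg adjustment over all 10899 genes that had at least 1 CPM in at least 3 libraries. Of the 10 members 9 were tested, Zbtb16 falling below that filter, and 1, Ddit4, passed at an adjusted p under 0.05. Over all tested genes 0.119% passed, every one of them higher in anti-Dll4 libraries, and 3.84% had all anti-Dll4 libraries above all control libraries. Voom, limma's method for reads, also called Ddit4 and no other member, where it called 0.128% of all tested genes higher.

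**Figure D1:**
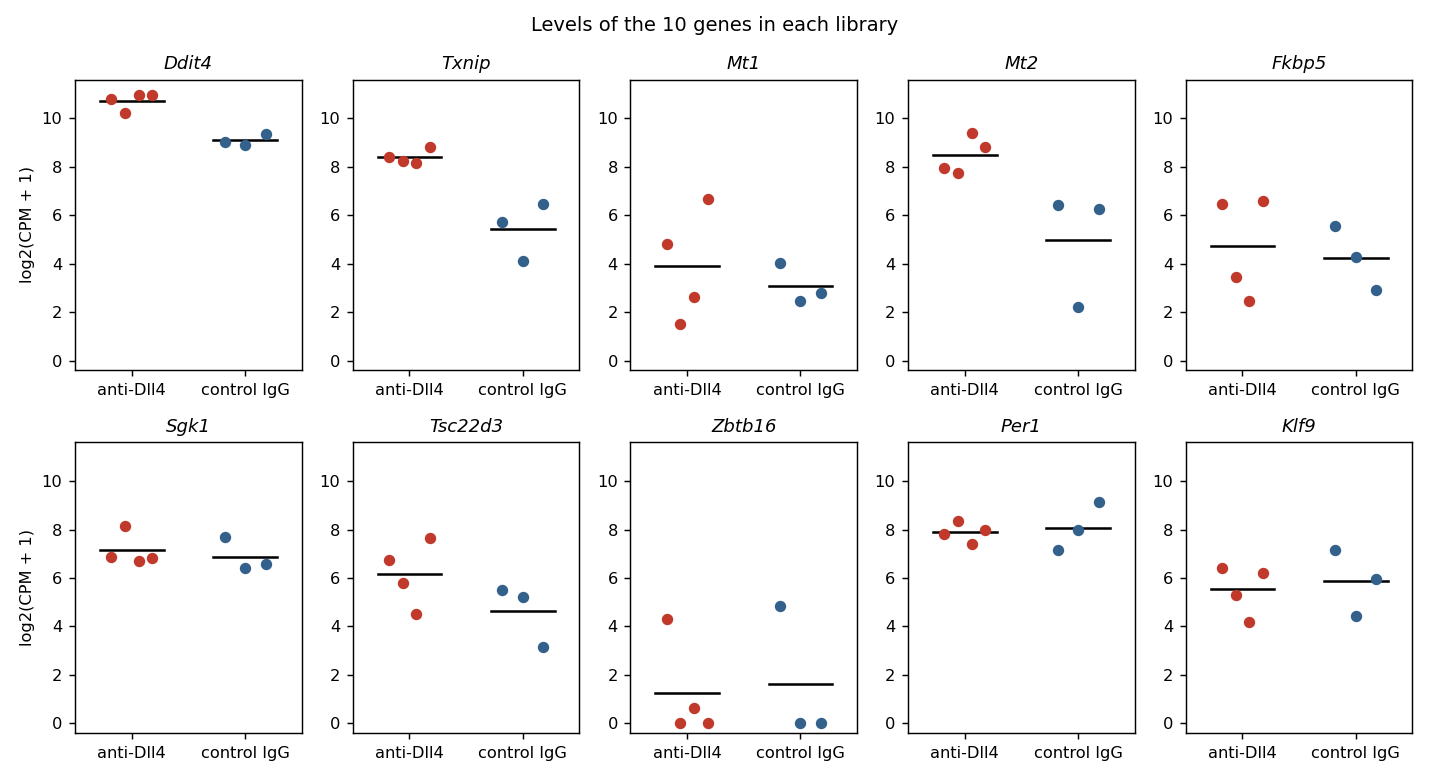
Each panel plots 1 of the 10 genes, with log2(CPM + 1) on the vertical axis, a point per library (4 anti-Dll4 in red, 3 control IgG in blue) and a bar at the group mean. The red points lie above the blue points for Ddit4, Txnip and Mt2, and the points mix in the other 7 panels.

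Ddit4, also called REDD1, restrains the growth kinase mTORC1 through the TSC complex. It was at 1790, 1182, 2020 and 1976 CPM in anti-Dll4 libraries 1 to 4, and at 518.1, 476.3 and 661.5 CPM in control IgG libraries 1, 3 and 4. The lowest anti-Dll4 library was therefore well above the highest control library, and the spread within each group was small. These values rest on 1933 to 3566 reads in anti-Dll4 and 646 to 1015 reads in control libraries. The means were 1742 ± 386 CPM in anti-Dll4 (SD, n = 4) and 552 ± 97.1 CPM in control libraries (SD, n = 3). In limma the log2 change was 1.64 ± 0.28 (SE), with an adjusted p of 0.0158. That call ended when control IgG 1, anti-Dll4 1 or anti-Dll4 4 was left out (adjusted p = 0.0698, 0.0900 and 0.121 in limma), while the log2 change stayed between 1.54 and 1.82 whichever library was omitted.

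Txnip, an alpha-arrestin that binds thioredoxin and limits glucose uptake, was at 340.8, 300.3, 286.1 and 454.0 CPM in anti-Dll4 libraries 1 to 4. In control IgG libraries 1, 3 and 4 it was at 51.3, 16.2 and 87.3 CPM. The anti-Dll4 libraries were close to each other, whereas the control libraries differed among themselves, control IgG 3 being the lowest with 22 reads. Mean levels were 345 ± 76.1 CPM in anti-Dll4 (SD, n = 4) and 51.6 ± 35.6 CPM in control libraries (SD, n = 3). The log2 change was 2.98 ± 0.61 (SE, limma adjusted p = 0.0538), just outside the threshold. It came inside without control IgG 4 (adjusted p = 0.0356) and stayed outside without any other library (adjusted p = 0.0882 to 0.271). Without control IgG 3, the lowest library, the log2 change was 2.32 ± 0.56 (adjusted p = 0.148). On GRCm38 the antisense gene Gm15441 overlaps the 3′ end of Txnip, and since the sources used here do not say whether strand was counted, reads of the pair cannot be told apart.

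Mt2 encodes a metallothionein, a small cysteine-rich protein that binds zinc and copper. Its level was 246.4, 213.5, 675.2 and 451.1 CPM in anti-Dll4 libraries 1 to 4, against 84.4, 3.69 and 74.9 CPM in control IgG libraries 1, 3 and 4. Control IgG 3 held only 5 reads of it and stood far below the other controls, and anti-Dll4 3 was the highest of all. Its means were 397 ± 213 CPM in anti-Dll4 (SD, n = 4) and 54.3 ± 44.1 CPM in control libraries (SD, n = 3). The log2 change of 3.52 ± 0.82 (SE) did not pass (limma adjusted p = 0.130), and it was 2.15 ± 0.58 without control IgG 3. Gm45774 is annotated on the opposite strand at its 3′ end, with the same uncertainty as for Txnip.

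Mt1, the metallothionein gene that neighbours Mt2, was covered by few reads in most libraries. It had 41, 3, 9 and 181 reads in anti-Dll4 libraries 1 to 4 and 26, 6 and 9 reads in control IgG libraries 1, 3 and 4. That is 27.5, 1.83, 5.10 and 102 CPM in anti-Dll4 and 15.3, 4.42 and 5.87 CPM in control libraries, so 1 anti-Dll4 library lay below every control and another far above. The log2 change was 0.82 (95% interval -2.73 to 4.38), and it turned to -0.10 without anti-Dll4 4. The annotated transcripts of Mt1 and Mt2 shared no identical stretch longer than 20 bases, against a read length of 75, so their reads could be separated by sequence. Mt1 thus did not share the separation of groups seen for Mt2.

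**Figure D2:**
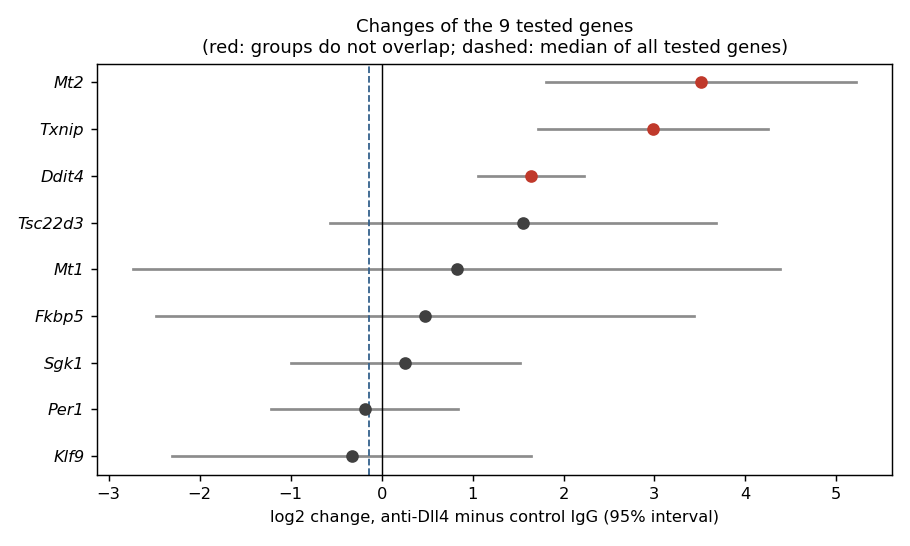
The points are log2 changes of anti-Dll4 over control IgG for the 9 tested members, with 95% intervals from limma. Mt2, Txnip and Ddit4, in red, have intervals above 0, the other 6 intervals cross 0, and the dashed line marks the median of all tested genes at -0.14.

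Fkbp5 encodes a co-chaperone that lowers the hormone affinity of the glucocorticoid receptor, and Tsc22d3 encodes GILZ, a mediator of anti-inflammatory glucocorticoid effects. Fkbp5 was at 86.4, 9.79, 4.53 and 94.3 CPM in anti-Dll4 libraries 1 to 4 and at 46.6, 18.4 and 6.52 CPM in control IgG libraries 1, 3 and 4. Tsc22d3 was at 105.8, 53.8, 21.5 and 202 CPM in anti-Dll4 libraries and at 44.3, 36.1 and 7.82 CPM in control libraries. Both were therefore high in anti-Dll4 1 and 4 and low in anti-Dll4 3, and among controls highest in control IgG 1 and lowest in control IgG 4. The log2 change was 0.48 for Fkbp5 (95% interval -2.48 to 3.43) and 1.55 for Tsc22d3 (-0.57 to 3.67), with limma adjusted p of 0.962 and 0.773. The direction for Fkbp5 turned when control IgG 4, anti-Dll4 1 or anti-Dll4 4 was left out, to -0.20, -0.10 and -0.14. The change of Tsc22d3 ranged from 0.81 without control IgG 4 to 2.11 without anti-Dll4 3.

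The order of libraries within the groups was shared by 4 members. For Fkbp5, Tsc22d3, Mt1 and Klf9, anti-Dll4 1 and 4 were the highest of the anti-Dll4 libraries and control IgG 1 the highest of the controls. This order was picked after the values were seen, and 6.12% of all tested genes had it. Within the anti-Dll4 group the highest library was 20.8 times the lowest for Fkbp5, 9.39 times for Tsc22d3, 55.7 times for Mt1 and 4.96 times for Klf9. For Ddit4, Txnip and Mt2 the same ratio was 1.71, 1.59 and 3.16. On the log2(CPM + 1) scale the SD over anti-Dll4 libraries was 2.09 for Fkbp5, 2.31 for Mt1, 1.36 for Tsc22d3 and 1.03 for Klf9, against a median of 1.56 over all tested genes, so Fkbp5 and Mt1 were above that median and Tsc22d3 and Klf9 below it. For Ddit4, Txnip and Mt2 this SD was 0.36, 0.30 and 0.77. Over control libraries the SD was 0.246 for Ddit4, 1.204 for Txnip and 2.37 for Mt2, with a median of 1.051 over all tested genes. It was 1.332 for Fkbp5, 0.838 for Mt1, 1.288 for Tsc22d3 and 1.364 for Klf9. In controls Ddit4 was thus still the least spread, Txnip was above Mt1, and Mt2 was the most spread of these genes. The medians over all tested genes cover genes of every level, and no comparison with genes of similar level was made. Counting error is large for the lowest values, such as 3 reads of Mt1 and 8 of Fkbp5 in anti-Dll4 and 5 of Mt2 in control libraries. Anti-Dll4 4 also had the most genes with a read, 11244, with 10012 to 10044 in anti-Dll4 1 to 3. Control IgG 1 had 10704, with 10052 and 10721 in control IgG 3 and 4. Whether this moved with the order of the 4 genes was not tested.

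**Figure D3:**
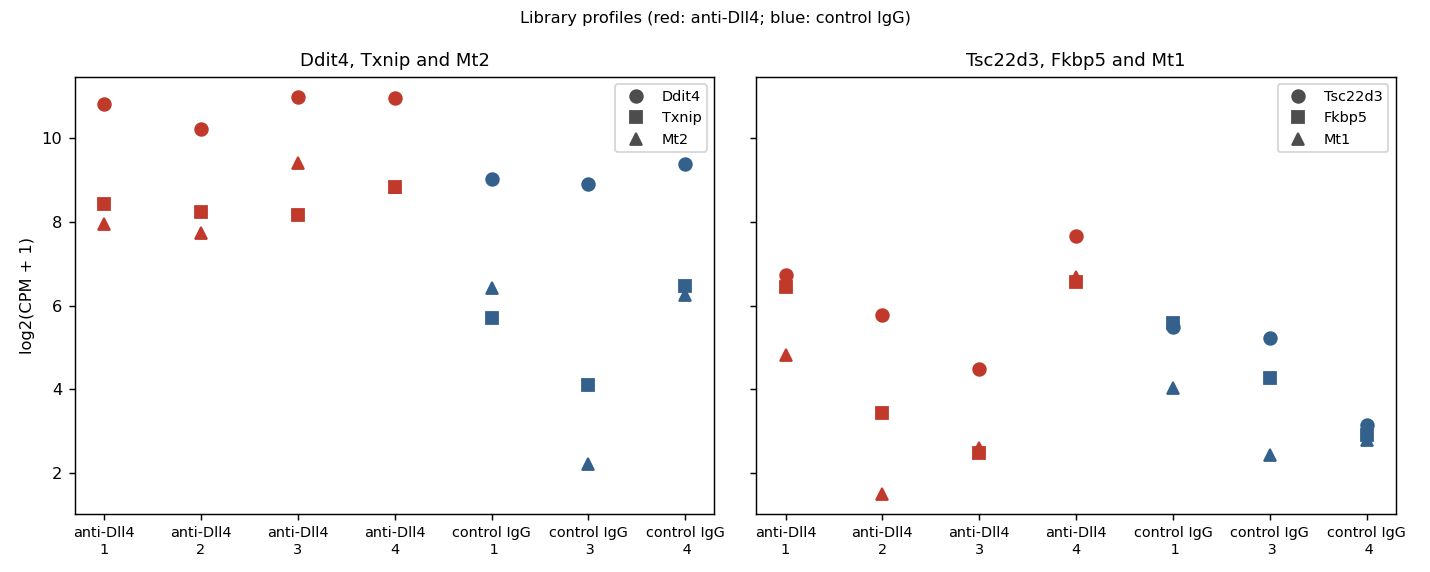
Levels in log2(CPM + 1) are plotted for each library along the horizontal axis, with a marker shape per gene, in red for anti-Dll4 and blue for control IgG. Ddit4, Txnip and Mt2 (left) separate the groups, while Tsc22d3, Fkbp5 and Mt1 (right) are highest in anti-Dll4 4 and 1 and in control IgG 1, with groups that overlap.

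Sgk1, a kinase related to AKT that regulates ion transport and phosphorylates FoxO3, was at 114.5, 282, 104 and 114.1 CPM in anti-Dll4 libraries 1 to 4. Its control IgG libraries 1, 3 and 4 were at 203.6, 83.3 and 93.2 CPM. In each group a single library stood above the rest, anti-Dll4 2 and control IgG 1, and the others lay between 83.3 and 114.5 CPM. The log2 change of 0.26 (95% interval -0.99 to 1.52, limma adjusted p = 0.951) turned to -0.07 without anti-Dll4 2.

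Per1, a repressor in the circadian clock that glucocorticoids induce, was at 226, 330.3, 169 and 251 CPM in anti-Dll4 libraries 1 to 4 and at 139.9, 248 and 564 CPM in control IgG libraries 1, 3 and 4. Anti-Dll4 values sat inside the control range. The log2 change was -0.18 (95% interval -1.21 to 0.85, limma adjusted p = 0.959) and became 0.35 without control IgG 4, the highest library.

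Klf9, a zinc finger transcription factor that glucocorticoids induce, was at 84.4, 38.5, 17.0 and 73.4 CPM in anti-Dll4 libraries and at 141.6, 20.6 and 61.9 CPM in control libraries. Its log2 change was -0.33 (95% interval -2.30 to 1.65, limma adjusted p = 0.961), and it turned to 0.32 without control IgG 1 and to 0.12 without anti-Dll4 3. Zbtb16, which encodes the zinc finger repressor PLZF, had 28, 0, 1 and 0 reads in anti-Dll4 and 47, 0 and 0 reads in control libraries. It was seen mainly in 1 library of each group, and a count of 0 allows up to 1.69 to 2.21 CPM in these libraries, counting error only. The intervals of Fkbp5, Mt1 and Klf9 include changes of more than 1 log2 unit in either direction. Those of Tsc22d3 (up to 3.67) and Sgk1 (up to 1.52) include rises, and that of Per1 (down to -1.21) falls, of more than 1 unit. Zbtb16 was not tested. Overlap of the groups therefore does not show that any of these genes stayed alike.

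The summed endothelial and rod marker levels moved with the same groups as Ddit4, Txnip and Mt2. Of the 19 endothelial markers 15 had a positive log2 change and 4 a negative one, where 45.5% of all tested genes were positive. Ly6c1, part of that sum, passed in limma (adjusted p = 0.0319), at 732 CPM on average in anti-Dll4 and 175 CPM in control libraries. Of the 16 rod markers 3 had a positive change and 13 a negative one. Relative to the summed CPM of the 19 endothelial markers, Ddit4 was at 0.389, 0.286, 0.376 and 0.428 in anti-Dll4 libraries 1 to 4 and at 0.257, 0.164 and 0.333 in control libraries, so the groups overlapped. Txnip relative to these markers was at 0.0533 to 0.0984 in anti-Dll4 and 0.00559 to 0.0439 in control libraries, and Mt2 at 0.0517 to 0.126 and 0.00127 to 0.0419, so these groups did not overlap. When libraries were scaled to equal mean endothelial markers, the log2 changes were 0.42 ± 0.46 for Ddit4, 1.76 ± 0.74 for Txnip and 2.29 ± 0.84 for Mt2 (SE, none past the threshold), against a median of -1.36 over all tested genes. When the mean rod marker level was added as a covariate, the change of Ddit4 was 1.37 ± 0.34, of Txnip 2.93 ± 0.77 and of Mt2 2.56 ± 1.01, again none past the threshold. Müller glia markers, of which 14 of 15 were in the table, summed to 0.214% to 0.312% in anti-Dll4 and 0.197% to 0.308% in control libraries. Of the 14, 8 had a positive log2 change, the median was 0.06, and none passed in limma, with 2 at an unadjusted p under 0.05. Voom called 1 of them, Spc25, as lower, and in limma its log2 change was -5.14 ± 1.61, with 2.13 ± 2.53 CPM in anti-Dll4 (SD, n = 4) and 85.8 ± 16.4 CPM in control libraries (SD, n = 3). Vim, in that list but also made by endothelium, was at 416 ± 93.7 CPM in anti-Dll4 and 83.8 ± 50.2 CPM in control libraries, and Rlbp1, a retinoid-binding protein of Müller glia, had a change of -1.55 ± 0.92.

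**Figure D4:**
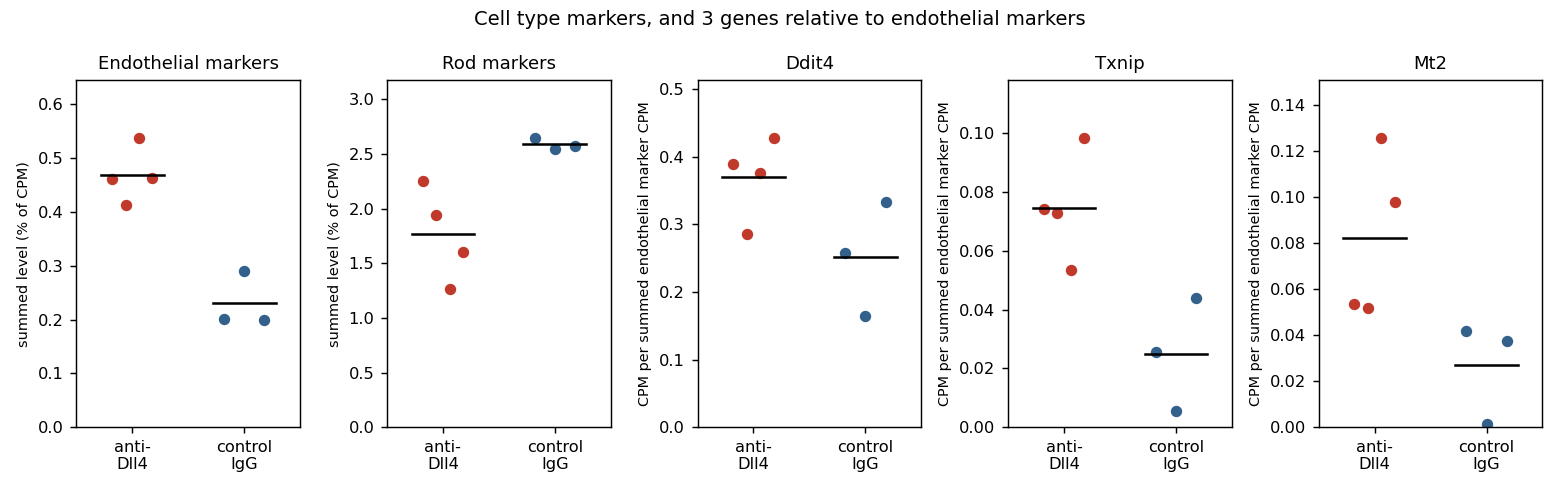
The left panels plot the summed level of endothelial and rod markers as a percentage of CPM, and the others the CPM of Ddit4, Txnip and Mt2 divided by the summed endothelial marker CPM, with a point per library and a bar at the group mean. Anti-Dll4 libraries (red) are above controls (blue) for endothelial markers, Txnip and Mt2, below for rod markers, and overlap with controls for Ddit4.

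Further genes of these pathways were examined in 9 lists drawn up by pathway. None of their genes passed in limma (0 in every list), and the count at an unadjusted p under 0.05 stands beside each list. Voom on whole reads called 1 gene of these lists, Ncor1. Over all tested genes 45.5% had a positive log2 change, with a median of -0.14, and 773 (7.09%) had an unadjusted p under 0.05. Of these 773, 401 were higher in anti-Dll4 libraries (3.68% of all tested genes) and 372 lower.

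Of the 17 tested genes for the glucocorticoid receptor, its chaperones and cofactors, 9 had a positive change and the median was 0.05, with 2 at an unadjusted p under 0.05. The receptor Nr3c1 was at 0, 33.6, 200.0 and 124 CPM in anti-Dll4 libraries 1 to 4 and at 0, 2.95 and 3.91 CPM in control libraries 1, 3 and 4. It was thus detected at more than a few reads only in 3 anti-Dll4 libraries. Its reads numbered 0, 55, 353 and 220 in anti-Dll4 libraries 1 to 4 and 0, 4 and 6 in control libraries 1, 3 and 4. A relation between the receptor's level and the members was not tested. The log2 change of Nr3c1 was 3.51 ± 1.89 (SE, limma adjusted p = 0.721). Ncor1, a corepressor of nuclear receptors, was at 693 ± 386 CPM in anti-Dll4 and 1933 ± 553 CPM in control libraries (log2 change -1.69 ± 0.43, limma adjusted p = 0.178). Hsp90ab1, the receptor's chaperone, had a change of 0.80 ± 0.37.

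Of 28 other glucocorticoid-induced genes, 17 had a positive change (median 0.32), and 4 had an unadjusted p under 0.05, 3 of them higher and 1 lower in anti-Dll4 libraries. Nfkbia, the inhibitor of NF-kB that glucocorticoids induce, was at 1009 ± 182 CPM in anti-Dll4 (SD, n = 4) and 428 ± 214 CPM in control libraries (SD, n = 3), a log2 change of 1.33 ± 0.34 (limma adjusted p = 0.202). Tgm2, a transglutaminase, had a change of 1.60 ± 0.51 and Pik3r1, the regulatory subunit of PI3K, 1.34 ± 0.47, both with groups that did not overlap. The lower gene was Tiparp, an ADP-ribosyltransferase gene named here after its values were seen, with 0, 0, 4 and 6 reads in anti-Dll4 and 17, 18 and 31 reads in control libraries (log2 change -2.94 ± 1.41, limma adjusted p = 0.700) and no overlap of groups. Of 25 genes for FoxO factors and FoxO targets, 17 had a positive change (median 0.42), and 2 had an unadjusted p under 0.05. The smallest p was that of Ccng2, a cyclin that goes with cell cycle exit, at 150 ± 50.0 CPM in anti-Dll4 and 34.3 ± 32.2 CPM in control libraries (2.39 ± 0.79, limma adjusted p = 0.453). Cited2, a cofactor that limits hypoxia-inducible factors, had a change of -2.15 ± 0.86, with anti-Dll4 libraries below controls, and Bbc3, a mediator of apoptosis, 1.80 ± 0.88.

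Metal handling genes had positive changes in 13 of 16 (median 1.21), with 6 at an unadjusted p under 0.05, 5 of them positive. The zinc importer Slc39a1 was at 418, 209, 640 and 329.7 CPM in anti-Dll4 libraries and at 115.7, 53.8 and 71.0 CPM in control libraries (log2 change 2.26 ± 0.52, limma adjusted p = 0.130), so the groups did not overlap. Slc39a10, another zinc importer, had a change of 3.69 ± 1.15 with overlapping groups, and Tfrc, the transferrin receptor, was at 123 ± 56.7 CPM in anti-Dll4 and 439 ± 200.1 CPM in control libraries (-1.88 ± 0.55). Of 18 thioredoxin, peroxiredoxin and alpha-arrestin genes, 6 had a positive change (median -0.20), and 2 had an unadjusted p under 0.05. Among them Txn1, the thioredoxin that Txnip binds, was at 173, 205, 197 and 244 CPM in anti-Dll4 and 30.1, 109.9 and 72.3 CPM in control libraries, with no overlap (1.69 ± 0.61, limma adjusted p = 0.534). The oxidative stress factor Nfe2l2 had a change of 4.00 ± 1.68 from control libraries near 0, and the peroxidase gene Prdx2 1.34 ± 0.81.

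**Figure D5:**
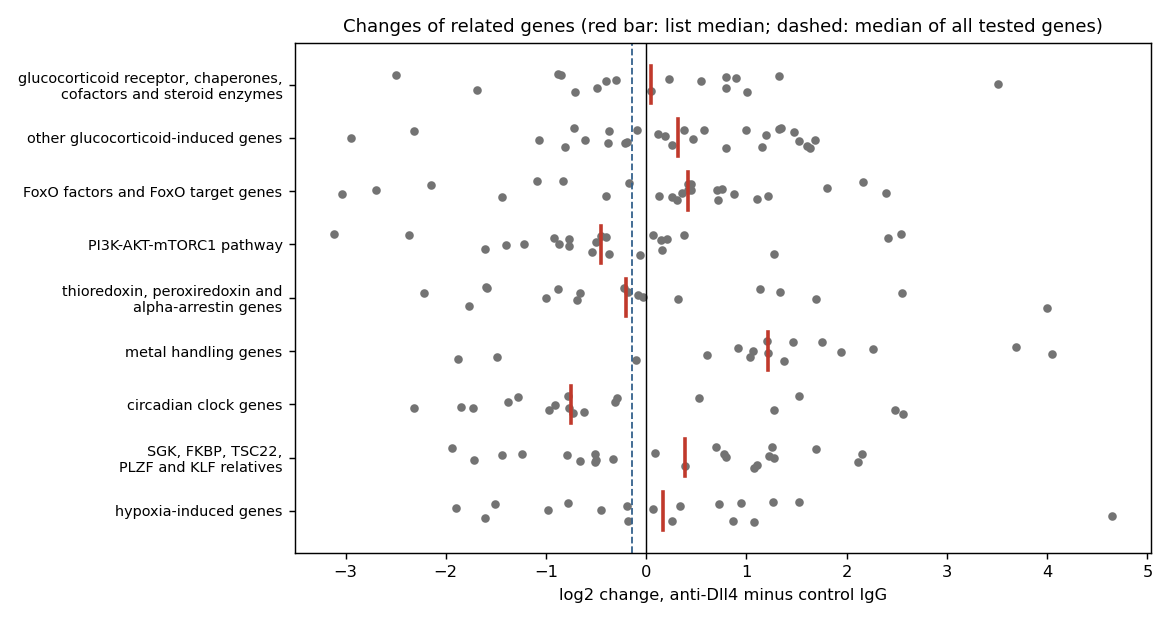
Each grey point is the log2 change of anti-Dll4 over control IgG for 1 tested gene of a related list, with a red bar at the list median and a dashed line at the median of all tested genes (-0.14). Metal handling genes have the highest median (1.21) and circadian clock genes the lowest (-0.75) of the 9 lists.

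In the PI3K, AKT and mTORC1 pathway on which Ddit4 acts, 8 of 23 genes had a positive change (median -0.46), and 1 had an unadjusted p under 0.05. The kinase Akt2 had a change of -3.11 ± 1.33, Tsc1, a subunit of the TSC complex, -1.40 ± 0.72, and Pdpk1, the kinase that activates AKT and Sgk1, 2.41 ± 1.29. All of these had overlapping groups. Akt2 had 0, 0, 0 and 2 reads in anti-Dll4 libraries and 0, 85 and 26 reads in control libraries. Pdpk1 had 74, 92 and 0 reads in control libraries, so its change leaned on control IgG 4. Circadian clock genes other than Per1 were positive in 5 of 18 (median -0.75), with 1 at an unadjusted p under 0.05. The repressor Bhlhe40 had a change of 2.56 ± 1.22, Per3 of -1.37 ± 0.69 and Nr1d2 of -0.73 ± 0.40, each with overlapping groups. Bhlhe40 had 283, 0 and 127 reads in control libraries, so its change leaned on control IgG 3.

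Relatives of Sgk1, Fkbp5, Tsc22d3, Zbtb16 and Klf9 had positive changes in 13 of 23 (median 0.39), and 2 had an unadjusted p under 0.05. Fkbp1a, the FK506-binding protein FKBP12, was at 299 ± 168 CPM in anti-Dll4 and 69.0 ± 47.6 CPM in control libraries (2.16 ± 0.60, limma adjusted p = 0.299), and Tsc22d1 at 544 ± 149 and 224 ± 51.3 CPM (1.25 ± 0.39), both with no overlap of groups. Ndrg1, a substrate of Sgk1, had a change of 1.08 ± 0.56. Hypoxia-induced genes, examined because hypoxia induces Ddit4, were positive in 10 of 18 (median 0.16), and 3 had an unadjusted p under 0.05. Slc2a1, the glucose transporter GLUT1, had a change of 1.52 ± 0.37 and the peptide gene Adm 4.65 ± 1.58, whereas Vegfa had -1.89 ± 0.88, its anti-Dll4 libraries lying below all controls. None of the 3 passed. Adm had 0, 14 and 0 reads in control libraries and 68 to 149 reads in anti-Dll4 libraries, so its change was measured from near the floor.

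The 5 genes whose log2(CPM + 1) most resembled that of Ddit4 over the 7 libraries, among 7262 others with a mean of at least 20 CPM, were Tpt1, Edn2, Rps14, Arpc3 and Hspa12b, with Pearson correlations of 0.99, 0.98, 0.97, 0.97 and 0.97. These correlations carry the difference between the groups and are given as a description. Tpt1, which encodes a translationally controlled protein, was at 1319 to 1854 CPM in anti-Dll4 and 652 to 688 CPM in control libraries. Edn2, the precursor of endothelin 2, was at 67.6 to 405.0 CPM in anti-Dll4 and at 0, 0 and 1.96 CPM in control libraries.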

How the data were processed

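The submitters' processing notes name cutadapt, TopHat2 and bedtools without versions or roles, and hg19, a human build, although 98.9% of the 12756 symbols matched mouse GENCODE M21. The sources used here do not give the annotation, the counting rule or the use of strand. Per the labels, libraries were made with QuantSeq from polyadenylated RNA. The deposited values are on a log10 scale. Turned back, the authors' values were CPM plus 1, summing to 1000000 CPM per library, and 100% of CPM values were whole multiples of 1 read (tolerance 1e-05).

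Values were converted to log2(CPM + 1), the 1 shrinking changes of low genes, and genes reaching 1 CPM in 3 or more libraries were fitted with limma 3.58.1 in R 4.3.3 (antibody as the only term, mean-variance trend, two-sided, Benjamini-Hochberg adjustment, threshold 0.05). Alternatives were other pseudocounts, filters, scalings, spread models, a rod marker covariate, a replicate block and leaving out each library. The members and lists were chosen with earlier results of these data known. All 10 members are named, and from each related list the genes past the threshold or else the 3 with the smallest p. Reads carry no molecular identifiers, so floors cover counting error only.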

Additional observations from a re-analysis of the deposited data

Results flagged for a closer look

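In 2 of the 10 groups of 4 anti-Dll4 libraries examined, a single library stood apart from the others on the log2(CPM + 1) scale, where chance marks about 1 group in 20. For Sgk1 this was anti-Dll4 2, at 8.14 log2 units or 282 CPM, with the other 3 anti-Dll4 libraries at 104 to 114.5 CPM. For Zbtb16 it was anti-Dll4 1, at 4.30 log2 units or 28 reads, with 0, 1 and 0 reads in the others. Because values tied at 0 leave no gap among themselves, the stated rate does not apply to Zbtb16. Groups of 3 control libraries are too small for this check, although control IgG 1 was also the highest control for both genes. The cause was not tested.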

How the results depend on the processing

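The count of all genes past the threshold was 13, and that of members was 1. The count of all genes was 31 (27 higher, 4 lower) for genes with a mean of at least 10 CPM, 0 without the mean-variance trend, 38 (14 higher, 24 lower) with voom on whole reads, 237 (1 higher, 236 lower) under endothelial marker scaling, 1 with the rod marker covariate and 3 to 20 with a library left out. The count of members was 2 with 5 added to CPM and under median-ratio scaling (Ddit4 and Txnip), 3 at a mean of at least 10 CPM (Ddit4, Txnip and Mt2), 0 without the trend, under endothelial marker scaling and with the rod marker covariate, and 0 to 2 with a library left out. The replicate block on title numbers gave 3 genes and 0 members, and Ddit4 had a change of 1.83 ± 0.31 in it (limma adjusted p = 0.183). Only numbers 3 and 4 occur in both groups. Every other library had a block of its own, so the changes in that fit rest on the libraries numbered 3 and 4 alone. Same-numbered libraries deviated together with correlations of 0.05 and 0.07 across genes, so the numbers were not taken as pairs.

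Directions of Ddit4, Txnip, Mt2 and Tsc22d3 held under all 17 alternatives, the change of Ddit4 between 0.42 and 1.83, of Txnip between 1.76 and 3.50, of Mt2 between 2.15 and 4.87 and of Tsc22d3 between 0.33 and 2.76. Signs turned under endothelial marker scaling for Mt1 (-0.40), Fkbp5 (-0.75) and Sgk1 (-0.96), and with the rod marker covariate for Per1 (0.0034) and Klf9 (0.55). With a library left out, signs turned in places for Fkbp5 (-0.20 to 1.23), Klf9 (-1.04 to 0.32), Mt1 (-0.10 to 1.63), Per1 (-0.66 to 0.35) and Sgk1 (-0.072 to 0.66). The cause was not tested, except that without the trend the log2 changes stay as they were while the spread estimate and its degrees of freedom differ (SE 0.61 for Ddit4), and that endothelial marker scaling moved the median of all genes from -0.14 to -1.36.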
